A study of Mus musculus with 16 samples.

Results

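The genes described here are 10 genes of the epithelial-mesenchymal transition: the transcription factors Snai1, Snai2, Zeb1, Zeb2 and Twist1, the cadherins Cdh1, Cdh2 and Cdh11, the intermediate filament gene Vim and the epithelial adhesion gene Epcam. They were taken as a list of gene names, chosen with earlier results of these data known, and every array probe named for one of them was included. This gave 18 of the 60273 gene probes on the array. Expression had been profiled in differentiating mESCs of the line CGR8-Myh6-GFP, a mouse embryonic stem cell line in which GFP is driven by the promoter of the heart myosin gene Myh6. From day 4 of differentiation the cells received the vehicle DMSO, 0.25 mg/ml of the hawthorn extract WS1442 or 0.1 mg/ml of MeOH eluate, a fraction of that extract, and RNA was taken after 6 h or 24 h. Each time point had 2 DMSO samples, 3 WS1442 samples and 3 MeOH eluate samples, which made 16 samples in 6 groups. All groups shared the same line, the same serum medium without LIF and spontaneous differentiation in plates, so that each sample held a mixture of cells. The labels number the replicates without saying whether they came from separate cultures, and p-values measure the spread between these samples only.

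In an epithelial-mesenchymal transition, cells that are held together by cadherin junctions loosen these contacts, change their cytoskeleton and become migratory. Factors of the Snail, Zeb and Twist families repress epithelial genes such as Cdh1 through short E-box motifs, and the change from E-cadherin to N-cadherin is a hallmark of the process. In the embryo it takes place at the primitive streak, where epiblast cells ingress to form mesoderm and endoderm, and differentiating mESCs pass through a comparable phase on the way to cardiac cells.

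Sequences upstream of the transcription start were held in the RefSeq table (GRCm38.p6) for 5 of the 10 genes. The 250 bases before the start of 4 of them are shown because these genes changed in the comparisons below, with Snai1 falling at 24 h and Epcam, Twist1 and Vim rising. Capitals mark the E-box CACCTG or its reverse complement CAGGTG, which were searched on both strands.
Snai1, chr2:167537945-167538194, + strand: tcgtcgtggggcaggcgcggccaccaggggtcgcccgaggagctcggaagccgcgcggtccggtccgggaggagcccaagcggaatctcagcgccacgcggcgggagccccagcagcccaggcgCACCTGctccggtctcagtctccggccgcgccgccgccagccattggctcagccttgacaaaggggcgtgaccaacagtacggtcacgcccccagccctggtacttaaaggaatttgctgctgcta
Twist1, chr12:33957421-33957670, + strand: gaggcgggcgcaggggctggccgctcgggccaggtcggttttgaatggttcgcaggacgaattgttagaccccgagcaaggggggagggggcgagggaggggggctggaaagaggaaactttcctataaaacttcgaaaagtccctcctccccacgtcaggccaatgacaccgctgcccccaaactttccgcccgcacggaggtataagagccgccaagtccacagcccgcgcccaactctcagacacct
Vim, chr2:13574061-13574310, + strand: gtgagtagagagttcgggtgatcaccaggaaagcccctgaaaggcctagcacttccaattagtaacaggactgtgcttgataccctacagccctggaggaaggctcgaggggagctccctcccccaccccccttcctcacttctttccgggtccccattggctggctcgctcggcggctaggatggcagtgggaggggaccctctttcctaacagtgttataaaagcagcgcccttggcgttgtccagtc
Epcam, chr17:87635729-87635978, + strand: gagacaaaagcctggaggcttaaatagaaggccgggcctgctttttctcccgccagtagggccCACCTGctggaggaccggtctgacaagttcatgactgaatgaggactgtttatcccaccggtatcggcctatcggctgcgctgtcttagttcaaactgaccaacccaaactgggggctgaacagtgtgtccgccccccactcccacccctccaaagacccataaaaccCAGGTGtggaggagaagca
The E-box was present once upstream of Snai1 and 2 times upstream of Epcam, starting 187 and 19 bases before the transcription start. It was not found in the windows of Twist1 and Vim, nor in any of the 4 windows listed for Zeb2. Among all 32851 windows of this length in the table, 17.2% held the motif. A match describes the letters of the window and does not show that a factor binds there.

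The members were measured at very different levels of signal, and the probes behind them were not equally informative. Of the 18 probes, 11 entered the fit because the scanner called them well above background on all arrays of 1 group or more, and these covered all 10 genes. The other 7 probes, of which 4 were for Zeb2, 2 for Zeb1 and 1 for Cdh2, stayed near background throughout, with log2 signals between 1.26 and 3.56, and were not tested. The 4 dim Zeb2 probes lie on chromosome 2 between 44876512 and 44965973 (mm9), where the scanner files assign them to single Zeb2 transcripts. Each gene is described by its brightest kept probe, and the dimmer of the kept Cdh2 probes is described beside it. The Cdh11 probe, which carried the largest decrease among the members that passed the test below, is shown for identity.
Cdh11 probe: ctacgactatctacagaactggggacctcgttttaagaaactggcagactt
No member probe was saturated. Signals are log2 values of the scanner's processed signal after quantile normalization over the 16 arrays, and signals of different probes cannot be compared as amounts of RNA.

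RNA integrity numbers lay between 8.6 and 10, with the lowest in WS1442 replicate 2 at 24 h. Between 55.1% and 63.0% of gene spots were well above background, and the 2 DMSO arrays at 24 h had 63.0% and 55.5%. The Pearson correlation of these 2 arrays, 0.9828, was the lowest within a group. The 8 arrays of a time point shared 1 slide, so that time and slide cannot be told apart and levels at 6 h and 24 h were not tested against each other. Cy3 incorporation at 24 h was 25.8 and 26.1 pmol/µg in the DMSO samples, 31.8 to 32.8 pmol/µg with WS1442 and 27.1 to 30.3 pmol/µg with MeOH eluate, and its part in the results was not tested. In such mixed cultures, fewer cells of a type and less RNA per cell cannot be told apart.

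In all, 2 of the 10 members changed with WS1442 at 6 h, 4 with MeOH eluate at 6 h, and 7 with each treatment at 24 h (limma, adjusted p under 0.05 by the Benjamini-Hochberg method over all 36718 kept probes). Over all 21389 named genes the same threshold was passed by 6.48% with WS1442 and 18.5% with MeOH eluate at 6 h, and by 26.2% and 20.2% at 24 h. Of all genes, 5.15% rose and 1.33% fell with WS1442 and 10.2% rose and 8.36% fell with MeOH eluate at 6 h, and at 24 h 14.5% rose and 11.7% fell with WS1442 and 11.7% rose and 8.57% fell with MeOH eluate. These shares depended on single arrays. Without the DMSO sample of replicate 1 at the same time point the shares called were 0.944% with WS1442 and 7.66% with MeOH eluate at 6 h, where 1 and 3 members were called, and 14% and 12.9% at 24 h, where 7 members were called with each. Without the DMSO sample of replicate 2 at 24 h, 2 members rose and 3 fell with WS1442. Scaling each array to its 75th percentile gave the same counts with WS1442 at 24 h. With MeOH eluate at 6 h, 2 members rose and 1 fell when any 1 of the arrays compared was left out. The share at 6 h was 2.35% with WS1442 without its replicate 3 and 12.3% with MeOH eluate without its replicate 3, and a fit of the 6 h arrays alone gave 1.74% with WS1442. Across all 4 comparisons Twist1 and Vim were higher than in DMSO. Cdh11 was lower with MeOH eluate at 6 h and with both treatments at 24 h. It was the only member that passed the threshold with a difference from DMSO of more than 2-fold. Of all genes 1.48%, 1.29% and 2.06% did so in these 3 comparisons and 0.164% with WS1442 at 6 h. At 24 h both treatments raised Cdh1, Epcam, Twist1 and Vim and lowered Snai1, Cdh2 and Cdh11. Snai2, Zeb1 and Zeb2 passed the threshold in no comparison with DMSO. Both treatments at a time point were compared with the same DMSO samples, so that their results are not independent.

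**Figure D1:**
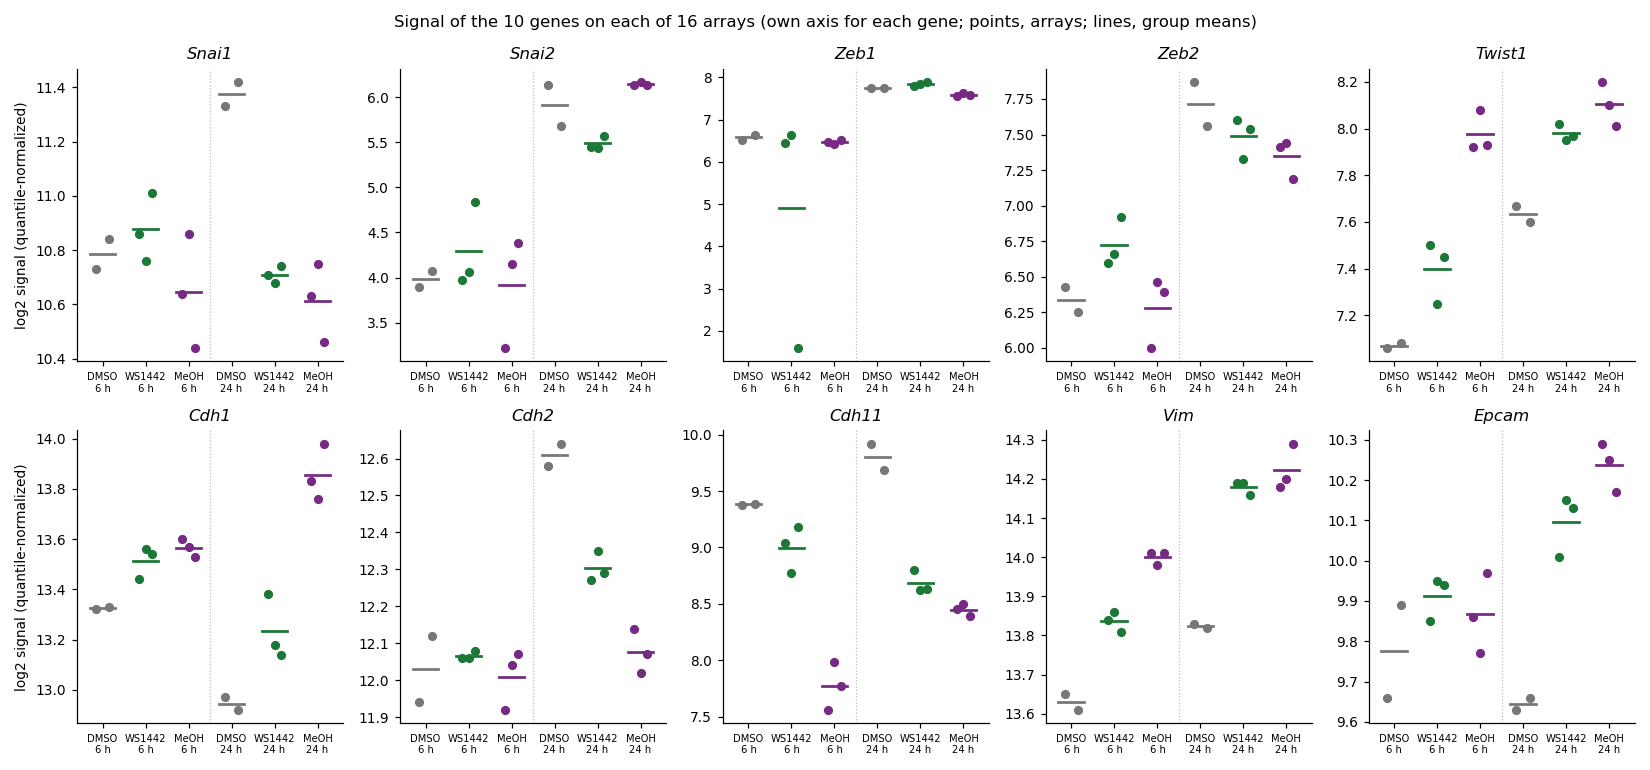
Log2 signal (vertical axis, quantile-normalized) of the brightest kept probe of each of the 10 genes in the 6 groups (horizontal axis), where points are single arrays and lines are group means over 2 DMSO or 3 treated arrays. Snai1 and Cdh2 were highest in both DMSO samples at 24 h, Cdh11 was lower in every treated sample than in the DMSO samples of its time point, and 1 WS1442 array at 6 h gave a Zeb1 signal of 1.60.

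Snai1 encodes the zinc finger repressor Snail. At 6 h its log2 signal was 10.73 and 10.84 with DMSO, 10.86, 10.76 and 11.01 with WS1442, and 10.64, 10.86 and 10.44 with MeOH eluate. The signal at 24 h was 11.33 and 11.42 with DMSO, 10.71, 10.68 and 10.74 with WS1442, and 10.63, 10.75 and 10.46 with MeOH eluate. The groups overlapped at 6 h, whereas at 24 h all 6 treated samples lay below both DMSO samples. The log2 fold change at 24 h was -0.66 (SE 0.11, limma adjusted p = 0.000559) with WS1442 and -0.76 (SE 0.11, adjusted p = 0.000168) with MeOH eluate. At 6 h the 95% confidence intervals of the log2 fold change ran from -0.14 to 0.32 with WS1442 and from -0.37 to 0.09 with MeOH eluate. The treated samples at 24 h had signals in the range of the samples at 6 h, and the DMSO samples at 24 h stood 0.58 log2 units above those at 6 h, a difference between slides that was not tested. The fold change at 24 h was lower than that at 6 h by a log2 difference of -0.75 (SE 0.15, adjusted p = 0.00746) with WS1442 and -0.61 (SE 0.15, adjusted p = 0.0232) with MeOH eluate. The latter call was lost without the DMSO sample of replicate 1 at 6 h (adjusted p = 0.112), that of replicate 2 at 24 h (adjusted p = 0.0663) or the MeOH eluate sample of replicate 3 at 24 h (adjusted p = 0.0579).

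Twist1 encodes a basic helix-loop-helix factor of mesenchymal cells. Its log2 signal at 6 h was 7.06 and 7.08 with DMSO, 7.50, 7.25 and 7.45 with WS1442, and 7.92, 8.08 and 7.93 with MeOH eluate. At 24 h it was 7.67 and 7.60 with DMSO, 8.02, 7.95 and 7.97 with WS1442, and 8.20, 8.10 and 8.01 with MeOH eluate. Every treated sample was above both DMSO samples of its time point, and at 6 h the MeOH eluate samples were also above all WS1442 samples. With MeOH eluate Twist1 rose by 0.91 on the log2 scale at 6 h (SE 0.09, adjusted p = 8.82e-06), or 1.88-fold, and by 0.47 at 24 h (SE 0.09, adjusted p = 0.00167). With WS1442 it rose by 0.34 at both 6 h (SE 0.09, adjusted p = 0.0428) and 24 h (SE 0.09, adjusted p = 0.0116). The call with WS1442 at 6 h was lost when any 1 of the 5 arrays compared was left out (adjusted p 0.0880 to 0.300), except WS1442 replicate 2 (adjusted p = 0.0235), and the call at 24 h was lost without the DMSO sample of replicate 2 (adjusted p = 0.0697).

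Snai2 encodes Slug, a relative of Snail that is prominent in neural crest. Its log2 signal at 6 h was 3.90 and 4.07 with DMSO, 3.97, 4.06 and 4.84 with WS1442, and 3.22, 4.15 and 4.38 with MeOH eluate. After 24 h the values were 6.14 and 5.68 with DMSO, 5.45, 5.44 and 5.57 with WS1442, and 6.13, 6.17 and 6.13 with MeOH eluate. The WS1442 samples lay below both DMSO samples at 24 h, while the MeOH eluate samples overlapped with these. Neither difference passed the threshold, with a log2 fold change of -0.42 (95% CI -1.07 to 0.22) with WS1442 and 0.23 (95% CI -0.41 to 0.88) with MeOH eluate. On 1 MeOH eluate array at 6 h the probe was not well above background.

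Zeb1 and Zeb2 encode zinc finger and homeobox repressors. The log2 signal of Zeb1 at 6 h was 6.52 and 6.64 with DMSO, 6.45, 6.64 and 1.60 with WS1442, and 6.46, 6.41 and 6.51 with MeOH eluate. The value of 1.60 belonged to a spot that was not well above background on the array of WS1442 replicate 3, and it widened the error of every comparison of Zeb1. Without that array, as an alternative chosen after the values were seen, the log2 fold change at 6 h was -0.03 (95% CI -0.23 to 0.16) with WS1442 and -0.12 (95% CI -0.30 to 0.06) with MeOH eluate, while with it the value for WS1442 was -1.68 (95% CI -3.75 to 0.38). At 24 h the Zeb1 signal was 7.74 and 7.75 with DMSO, 7.79, 7.84 and 7.89 with WS1442, and 7.55, 7.63 and 7.57 with MeOH eluate. The 3 groups did not overlap at 24 h, yet they lay close together, and without the dim array the log2 fold change was 0.09 (SE 0.08, adjusted p = 0.458) with WS1442 and -0.16 (SE 0.08, adjusted p = 0.231) with MeOH eluate.

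The log2 signal of Zeb2 at 6 h was 6.43 and 6.25 with DMSO, 6.60, 6.66 and 6.92 with WS1442, and 6.00, 6.46 and 6.39 with MeOH eluate. The signal at 24 h was 7.87 and 7.56 with DMSO, 7.60, 7.33 and 7.54 with WS1442, and 7.41, 7.44 and 7.19 with MeOH eluate. The WS1442 samples at 6 h were above both DMSO samples and the MeOH eluate samples at 24 h were below both, but neither difference passed the threshold. The value was 0.39 on the log2 scale (SE 0.15, adjusted p = 0.175) with WS1442 at 6 h and -0.37 (SE 0.15, adjusted p = 0.119) with MeOH eluate at 24 h. In the DMSO samples Zeb2, Zeb1 and Snai2 were higher at 24 h than at 6 h by 1.38, 1.16 and 1.92 log2 units, differences that are confounded with the slide and were not tested.

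**Figure D2:**
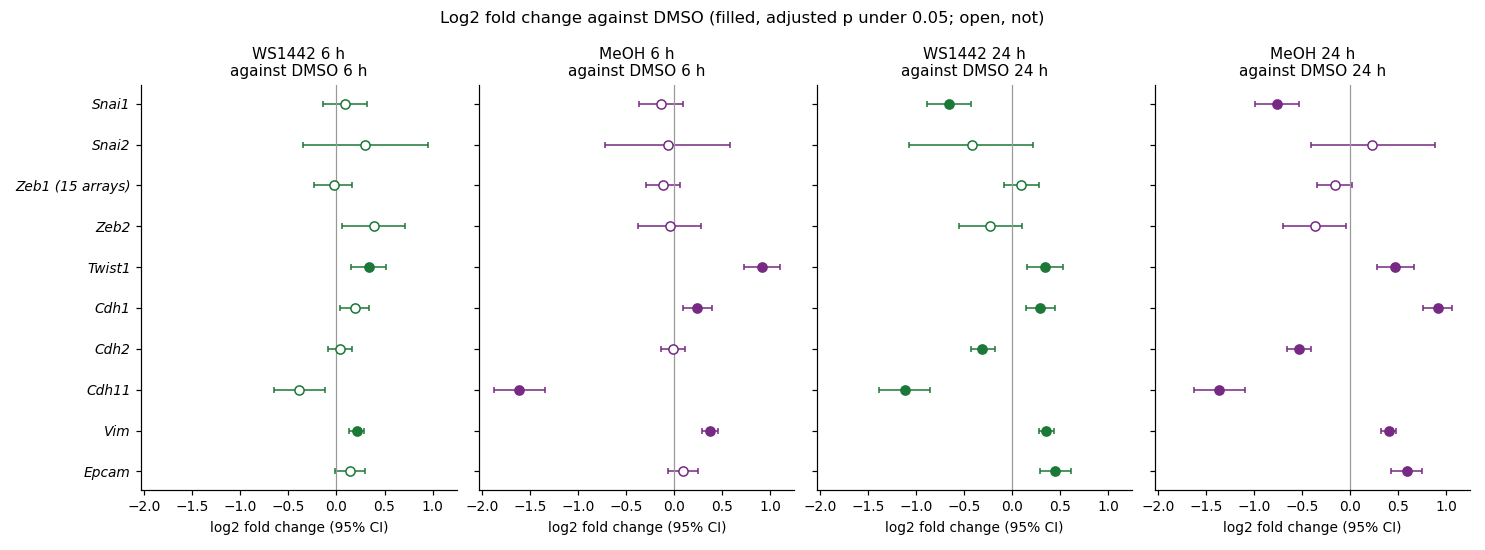
Log2 fold change against DMSO of the same time point (horizontal axis) for each gene (vertical axis) with 95% confidence intervals from limma, where filled symbols passed an adjusted p of 0.05. Zeb1 is shown from the fit without the array with the dim spot, all other genes from the fit of 16 arrays. At 24 h the same 7 genes are filled in both panels, and the Cdh11 estimates lie furthest from 0 in all panels but that of WS1442 at 6 h, where Zeb2 and Cdh11 are the most distant and open.

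Cdh1 encodes E-cadherin, the adhesion molecule of epithelial junctions and of undifferentiated mESCs. At 6 h its log2 signal was 13.32 and 13.33 with DMSO, 13.44, 13.56 and 13.54 with WS1442, and 13.60, 13.57 and 13.53 with MeOH eluate. At 24 h it was 12.97 and 12.92 with DMSO, 13.38, 13.18 and 13.14 with WS1442, and 13.83, 13.76 and 13.98 with MeOH eluate. Every treated sample was above both DMSO samples of its time point, and the MeOH eluate samples at 24 h were the highest of the series. With MeOH eluate Cdh1 rose by 0.24 on the log2 scale at 6 h (SE 0.07, adjusted p = 0.0310) and by 0.91 at 24 h (SE 0.07, adjusted p = 6.58e-07), or 1.88-fold. With WS1442 it rose by 0.29 at 24 h (SE 0.07, adjusted p = 0.00841), and its log2 fold change at 6 h was 0.19 (SE 0.07, adjusted p = 0.149). The fold change with MeOH eluate was larger at 24 h than at 6 h by 0.67 (SE 0.10, adjusted p = 0.000684). The call at 6 h with MeOH eluate was lost when any 1 of its 5 arrays was left out (adjusted p 0.0550 to 0.165). The call with WS1442 at 24 h was lost without the DMSO sample of replicate 2 (adjusted p = 0.0537), and scaling each array to its 75th percentile reduced it to 0.16 (adjusted p = 0.173).

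Cdh2 encodes N-cadherin, which mesoderm and neural cells carry. The log2 signal of its brightest probe at 6 h was 11.94 and 12.12 with DMSO, 12.06, 12.06 and 12.08 with WS1442, and 11.92, 12.04 and 12.07 with MeOH eluate. After 24 h the values were 12.58 and 12.64 with DMSO, 12.27, 12.35 and 12.29 with WS1442, and 12.14, 12.02 and 12.07 with MeOH eluate. At 6 h the groups overlapped, and at 24 h the 3 groups were fully separated, with DMSO highest and MeOH eluate lowest. Against DMSO the log2 fold change at 24 h was -0.31 (SE 0.06, adjusted p = 0.00166) with WS1442 and -0.53 (SE 0.06, adjusted p = 1.76e-05) with MeOH eluate. The fold change at 24 h was below that at 6 h by a log2 difference of -0.35 (SE 0.08, adjusted p = 0.0160) with WS1442, a call that was lost without the DMSO sample of replicate 1 at 6 h (adjusted p = 0.0947), and -0.52 (SE 0.08, adjusted p = 0.00123) with MeOH eluate.

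The dimmer Cdh2 probe differed from the brightest one at 6 h. Its log2 signal there was 10.52 and 10.51 with DMSO, 10.37, 10.32 and 10.42 with WS1442, and 10.18, 10.25 and 10.21 with MeOH eluate, so that the 3 groups did not overlap. The signal at 24 h was 10.59 and 10.65 with DMSO, 10.42, 10.27 and 10.35 with WS1442, and 10.25, 10.11 and 10.21 with MeOH eluate. Against DMSO its log2 fold change was -0.30 (SE 0.06, adjusted p = 0.00276) with MeOH eluate at 6 h, -0.27 (SE 0.06, adjusted p = 0.00380) with WS1442 at 24 h and -0.43 (SE 0.06, adjusted p = 0.000123) with MeOH eluate at 24 h. Both probes were lower with both treatments at 24 h. The time dependence of the brightest probe was not shown by the dimmer one, whose log2 difference between the effects at 24 h and 6 h was -0.12 (95% CI -0.30 to 0.05) with either treatment.

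Cdh11 encodes OB-cadherin, found on mesenchymal cells. Its log2 signal at 6 h was 9.38 and 9.39 with DMSO, 9.04, 8.77 and 9.18 with WS1442, and 7.56, 7.98 and 7.77 with MeOH eluate. At 24 h it was 9.92 and 9.69 with DMSO, 8.80, 8.62 and 8.63 with WS1442, and 8.45, 8.50 and 8.39 with MeOH eluate. Every treated sample was below both DMSO samples of its time point, and MeOH eluate samples were below all WS1442 samples at both time points. The log2 fold change with MeOH eluate was -1.62 at 6 h (SE 0.12, adjusted p = 1.08e-06), which is 3.06-fold lower, and -1.36 at 24 h (SE 0.12, adjusted p = 3.26e-06). With WS1442 it was -0.39 at 6 h (SE 0.12, adjusted p = 0.0922) and -1.12 at 24 h (SE 0.12, adjusted p = 3.58e-05). The value at 6 h passed the threshold under another background correction (limma adjusted p = 0.0283). It also passed with the array row as a block (adjusted p = 0.0282, or 0.0333 within each slide). The fold change with WS1442 at 24 h was below that at 6 h by a log2 difference of -0.73 (SE 0.18, adjusted p = 0.0160), while for MeOH eluate this difference was 0.26 (95% CI -0.11 to 0.63). The call on the difference over time with WS1442 was lost without the DMSO sample of replicate 1 at 6 h (adjusted p = 0.0627) or at 24 h (adjusted p = 0.0846).

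**Figure D3:**
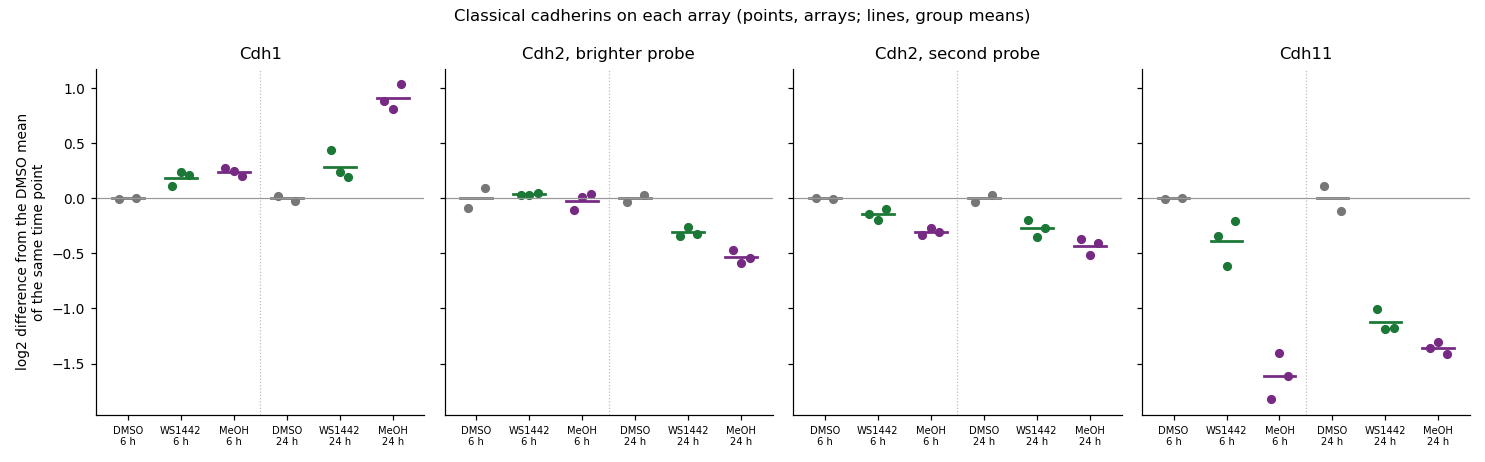
Log2 difference of each array from the mean of the DMSO arrays of the same time point (vertical axis) for Cdh1, both kept Cdh2 probes and Cdh11 in the 6 groups (horizontal axis), where points are arrays and lines are group means. Cdh1 lay above 0 on every treated array and Cdh11 below 0, and the brighter Cdh2 probe lay below 0 on all treated arrays at 24 h but not at 6 h, where the dimmer probe did.

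Vim encodes vimentin, the intermediate filament of mesenchymal cells. Its log2 signal at 6 h was 13.65 and 13.61 with DMSO, 13.84, 13.86 and 13.81 with WS1442, and 14.01, 13.98 and 14.01 with MeOH eluate. After 24 h the values were 13.83 and 13.82 with DMSO, 14.19, 14.19 and 14.16 with WS1442, and 14.18, 14.20 and 14.29 with MeOH eluate. The 3 groups were separated at 6 h, and at 24 h both treated groups lay above DMSO and overlapped each other. The log2 fold change of Vim at 6 h was 0.21 (SE 0.04, adjusted p = 0.00642) with WS1442 and 0.37 (SE 0.04, adjusted p = 1.13e-05) with MeOH eluate. The values at 24 h were 0.35 (SE 0.04, adjusted p = 2.69e-05) and 0.40 (SE 0.04, adjusted p = 3.96e-06). These shifts of at most 1.32-fold stood beside a spread within groups of 0.03 log2 units, where the median over all kept probes was 0.15. Scaling to the 75th percentile reduced the log2 fold change with WS1442 at 24 h to 0.13 (adjusted p = 0.0846).

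Epcam encodes an epithelial cell adhesion molecule that undifferentiated mESCs also express. Its log2 signal at 6 h was 9.66 and 9.89 with DMSO, 9.85, 9.95 and 9.94 with WS1442, and 9.86, 9.77 and 9.97 with MeOH eluate. The signal at 24 h was 9.63 and 9.66 with DMSO, 10.01, 10.15 and 10.13 with WS1442, and 10.29, 10.25 and 10.17 with MeOH eluate. The groups overlapped at 6 h, and at 24 h all treated samples lay above both DMSO samples. For Epcam the log2 fold change at 24 h was 0.45 (SE 0.08, adjusted p = 0.000743) with WS1442 and 0.59 (SE 0.08, adjusted p = 7.5e-05) with MeOH eluate. At 6 h the 95% confidence intervals of the log2 fold change were -0.02 to 0.30 and -0.07 to 0.25. With MeOH eluate the fold change was larger at 24 h than at 6 h by 0.50 (SE 0.11, adjusted p = 0.0104), a call that was lost without the DMSO sample of replicate 2 at 6 h (adjusted p = 0.0592).

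Of the 10 members, 3 had a different effect at 24 h than at 6 h with WS1442 (Snai1, Cdh2 and Cdh11) and 5 with MeOH eluate (Snai1, Twist1, Cdh1, Cdh2 and Epcam), beside 13.9% and 9.22% of all genes. Twist1 was the only member whose rise with MeOH eluate was smaller at 24 h, by a log2 difference of -0.44 (SE 0.12, adjusted p = 0.0447). This call was lost when any 1 of 9 of the 10 arrays behind it was left out, the exception being MeOH eluate replicate 1 at 24 h (adjusted p 0.0562 to 0.141 for the other 9).

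WS1442 and MeOH eluate were then set against each other, although at different doses (0.25 and 0.1 mg/ml), so that a difference between them cannot be told apart from one of dose. At 6 h, 3 of the 10 members differed, beside 13.7% of all genes. Compared with WS1442, MeOH eluate gave a log2 difference of -1.23 for Cdh11 (SE 0.11, adjusted p = 2.06e-05), 0.58 for Twist1 (SE 0.08, adjusted p = 0.000575) and 0.16 for Vim (SE 0.03, adjusted p = 0.00826). The value for Zeb2 was -0.44 (SE 0.14, adjusted p = 0.0507). Zeb2 passed under another background correction (limma adjusted p = 0.0483), a stricter background filter (adjusted p = 0.0425) and the authors' values (adjusted p = 0.0498). It also passed without WS1442 replicate 1 (adjusted p = 0.0405) or MeOH eluate replicate 2 (adjusted p = 0.0383). At 24 h, 2 of the 10 differed, beside 16.3% of all genes, with a log2 difference of 0.62 for Cdh1 (SE 0.06, adjusted p = 6.67e-05) and -0.22 for Cdh2 (SE 0.05, adjusted p = 0.0110). After scaling each array to its 75th percentile, the call for Vim at 6 h (adjusted p = 0.0938) and that for Cdh2 at 24 h (adjusted p = 0.0849) were lost. For Snai2 the log2 difference at 24 h was 0.66 (SE 0.27, adjusted p = 0.128), and in a fit of the 24 h arrays alone its adjusted p was 0.0116. For Cdh11, Twist1 and Vim the 95% confidence intervals of this log2 difference at 24 h were -0.47 to 0.00, -0.04 to 0.29 and -0.03 to 0.11. For Zeb1 without the array with the dim spot the log2 difference at 24 h was -0.26 (SE 0.08, adjusted p = 0.0367).

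Other genes of epithelial cells moved with Cdh1 and Epcam at 24 h. Of 31 junction, keratin and epithelial regulator genes, 19 rose and 1 fell with WS1442, and 19 rose and 1 fell with MeOH eluate, beside 14.5% and 11.7% of all genes that rose. The median log2 fold change of the list was 0.32 and 0.46, beside 0.05 and 0.02 over all genes. With MeOH eluate at 24 h the log2 fold changes that led the list were 1.30 for Cgn (SE 0.09, adjusted p = 2.09e-07) and 1.23 for Cldn3 (SE 0.09, adjusted p = 6.03e-07), which encode the tight junction proteins cingulin and claudin-3. With WS1442 at 24 h they were 0.75 for Marveld3 (SE 0.09, adjusted p = 5.25e-05), a further tight junction gene, and 0.70 for Cldn3 (SE 0.09, adjusted p = 0.00014). Krt8 and Krt18, the keratin pair of simple epithelia, had log2 fold changes of 0.41 and 0.23 with WS1442 and of 0.61 and 0.53 with MeOH eluate at 24 h, all of which passed the test, whereas at 6 h all 4 values lay between -0.02 and 0.04. Krt7, a further keratin gene, was the 1 gene of the list that fell at 24 h, with log2 fold changes of -0.40 under WS1442 and -0.53 under MeOH eluate.

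At 6 h, 7 of the 31 epithelial genes rose and 2 fell with WS1442, and 11 rose and 3 fell with MeOH eluate, beside 5.15% and 10.2% of all genes that rose and 1.33% and 8.36% that fell. The median log2 fold change was 0.03 and 0.09, beside 0.02 and 0.01 over all genes. The counts at 6 h rested on single arrays. Without the DMSO sample of replicate 1 the epithelial genes that rose numbered 0 with WS1442 and 6 with MeOH eluate. Leaving out the DMSO sample of replicate 2 gave 4 and 7. With WS1442 the count was 4 without its replicate 2 and 3 without its replicate 3, and with MeOH eluate it was 6 without its replicate 3. Cldn3 had already risen, with log2 fold changes of 0.61 and 0.95. Tjp3, a tight junction scaffold gene, rose by 0.54 under WS1442, and Cgn rose by 0.86 under MeOH eluate. The log2 fold changes of Crb3, a polarity gene, were -0.53 and -0.48, and those of Krt7 were -0.29 and -0.60.

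**Figure D4:**
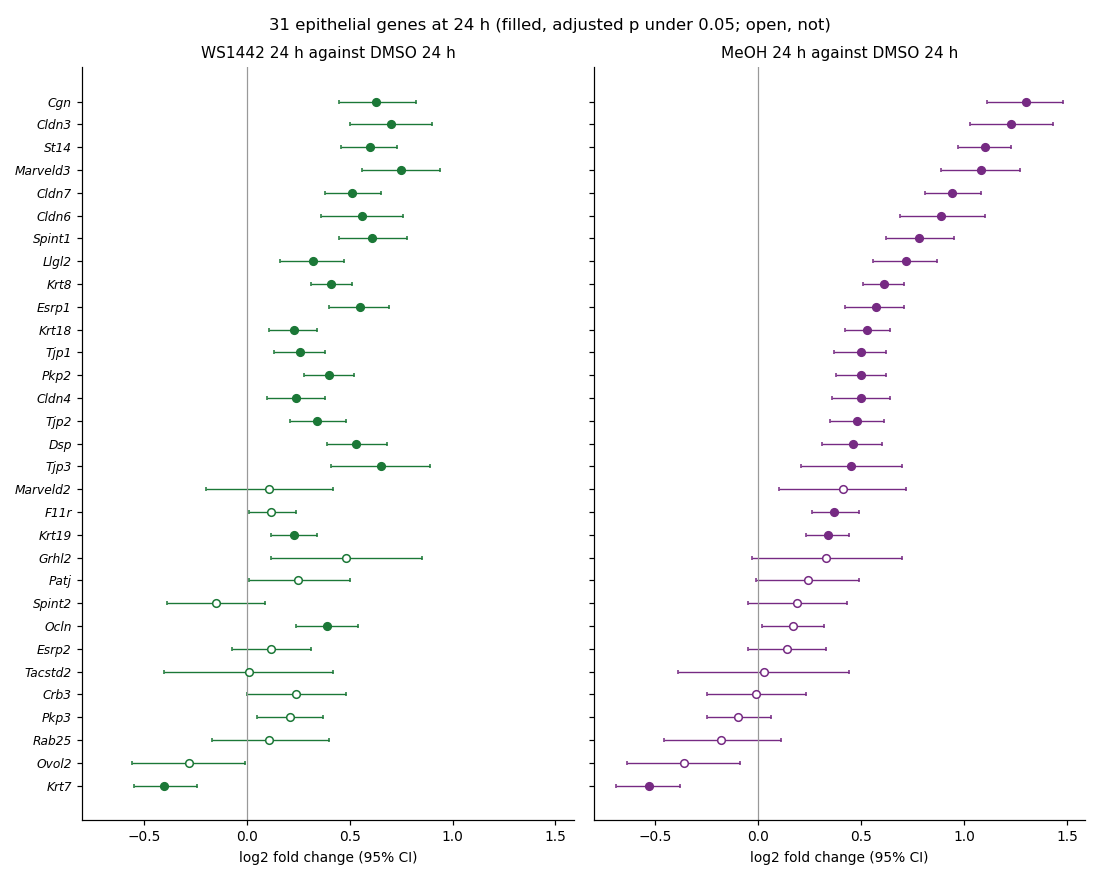
Log2 fold change against DMSO at 24 h (horizontal axis) of 31 epithelial genes (vertical axis, ordered by the value with MeOH eluate) with 95% confidence intervals from limma, for WS1442 on the left and MeOH eluate on the right, where filled symbols passed an adjusted p of 0.05. Of the 31 genes, 19 are filled to the right of 0 in each panel and Krt7 is the 1 gene filled to the left.

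Catenins, which link cadherins to actin, were represented by 7 genes that could be tested. Of these, 1 rose with WS1442 and 2 with MeOH eluate at 6 h, 3 and 4 rose at 24 h, and 0 passed the limma threshold in the other direction in any of the 4 comparisons, where 1 gene was lower at an unadjusted p under 0.05 with each treatment at 6 h and 0 were at 24 h. Of all genes 5.15% and 10.2% rose at 6 h and 14.5% and 11.7% at 24 h in the same order. The shares of all genes that fell were 1.33%, 8.36%, 11.7% and 8.57%. For a list of 7 genes a count of 0 that fell lies near these shares. The median log2 fold change of the catenin genes was 0.08 and 0.03 at 6 h and 0.18 and 0.30 at 24 h, beside 0.02, 0.01, 0.05 and 0.02 over all genes. The 1 call with WS1442 at 6 h was lost without the DMSO sample of replicate 1. At 6 h the log2 fold change of Arvcf was 0.32 with WS1442 and 0.48 with MeOH eluate, and that of Ctnnd2 was 0.81 with MeOH eluate. With WS1442 at 24 h Ctnna1, Ctnnd1 and Ctnnd2 rose by 0.18, 0.32 and 0.45. With MeOH eluate at 24 h Ctnnd1, Ctnna1, Arvcf and Jup (plakoglobin) rose by 0.26, 0.30, 0.31 and 0.36.

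Of 18 other cadherins 13 could be tested, and 0 passed the limma threshold with either treatment at 6 h, when 3 had an unadjusted p under 0.05 with WS1442 and 2 with MeOH eluate. Of all genes 6.48% passed with WS1442 and 18.5% with MeOH eluate at 6 h, and 26.2% and 20.2% at 24 h. Some probes limit these counts, since at 6 h Cdh5 was well above background on no array. With MeOH eluate at 6 h this was also true of Cdh10 and Cdh22. At 24 h Cdh16 fell by 0.46 with WS1442, and with MeOH eluate Cdh4 fell by 0.75 and Cdh13 rose by 0.57 on the log2 scale. The Cdh13 call was lost without the DMSO sample of replicate 1 or MeOH eluate replicate 3 at 24 h. Cdh5, the cadherin of endothelial cells, stayed below the background threshold in all 3 MeOH eluate samples at 24 h and was at least 2.08-fold lower there than in DMSO. It passed the threshold, but the filter kept its probe only through the DMSO and WS1442 arrays at 24 h. These were the only groups in which it was well above background, so that the call is no support for a decrease. Cdh3, which encodes P-cadherin, had log2 fold changes between -0.35 and -0.23 in the 4 comparisons and passed the threshold in none (adjusted p 0.443 to 0.644).

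Of 18 mesenchymal genes that could be tested, 2 rose and 1 fell with WS1442 at 6 h, 8 rose and 2 fell with MeOH eluate at 6 h, 5 rose and 3 fell with WS1442 at 24 h, and 4 rose and 5 fell with MeOH eluate at 24 h. The shares of all genes that rose and fell were 5.15% and 1.33%, 10.2% and 8.36%, 14.5% and 11.7%, and 11.7% and 8.57% in these comparisons. These counts also moved with single arrays. Without the DMSO sample of replicate 1 at the same time point 0 rose and 0 fell with WS1442 and 3 rose and 1 fell with MeOH eluate at 6 h, while at 24 h 2 rose and 1 fell with WS1442 and 3 fell with MeOH eluate. Leaving out the DMSO sample of replicate 2 gave 4 that rose and 4 that fell with MeOH eluate and 1 that rose with WS1442 at 6 h, and 3 that rose with WS1442 at 24 h. Without MeOH eluate replicate 3 at 6 h 4 rose and 1 fell with MeOH eluate. Without WS1442 replicate 2 at 24 h 3 rose and 1 fell with WS1442, and 1 fell without its replicate 3. The median log2 fold change at 6 h was 0.09 with WS1442 and 0.13 with MeOH eluate. At 24 h it was -0.02 with WS1442 and -0.04 with MeOH eluate, beside 0.05 and 0.02 over all genes. Vim was thus accompanied by genes that moved in either direction. S100a4, which encodes a calcium-binding protein of motile cells, had log2 fold changes of 0.80 with WS1442 and 1.64 with MeOH eluate at 24 h. The matrix gene Tgfbi fell by 0.73 with each treatment at 24 h, and Thy1 fell by 1.04 with MeOH eluate. Sparc rose by 0.45 with MeOH eluate and Fbn1 by 0.33 with WS1442 at 24 h, whereas Pdgfrb, a growth factor receptor gene, fell by 0.47 with WS1442. At 6 h the log2 fold changes with WS1442 and MeOH eluate were 0.55 and 0.83 for Loxl2 and -0.52 and -0.46 for Itga5. Those of Thy1 at 6 h were 0.34 and 0.45, so that its direction with MeOH eluate differed between the time points. Loxl2 likewise had a log2 fold change of -0.63 with MeOH eluate at 24 h (limma adjusted p = 0.0049). Also at 6 h Cnn1 rose by 0.77, Sparc rose by 0.20 and Pdgfrb fell by 1.06 with MeOH eluate. Fn1, which encodes fibronectin, fell by 0.17 with MeOH eluate at 24 h (adjusted p = 0.00916), and its log2 fold change was between 0.00 and 0.12 in the other 3 comparisons.

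Of 10 other transcription factors linked to the transition, 2 rose and 1 fell with WS1442 at 6 h, 3 rose and 2 fell with MeOH eluate at 6 h, 4 rose and 2 fell with WS1442 at 24 h, and 4 rose and 1 fell with MeOH eluate at 24 h. Beside these stood 5.15% and 1.33%, 10.2% and 8.36%, 14.5% and 11.7%, and 11.7% and 8.57% of all genes that rose and fell. The median log2 fold change of the list was 0.04, 0.00, 0.25 and 0.14 in the same order. The 2 genes that fell with WS1442 at 24 h numbered 0 or 1 without any 1 of the 5 arrays compared, and the 2 that fell with MeOH eluate at 6 h numbered 1 without the DMSO sample of replicate 1 or MeOH eluate replicate 1 or 3. The 2 that rose with WS1442 at 6 h numbered 1 without the DMSO sample of replicate 1. The forkhead gene Foxc2 rose in all 4 comparisons, by 1.86 and 3.24 on the log2 scale at 6 h and by 0.78 and 1.44 at 24 h with WS1442 and MeOH eluate. Foxc1 rose likewise, by 1.01, 1.58, 0.81 and 0.76 in the same order. Gsc, a homeobox gene of the anterior primitive streak, had log2 fold changes of -0.98 with WS1442 and -2.66 with MeOH eluate at 6 h, and of -0.79 with MeOH eluate at 24 h. Prrx1 fell by 1.26 and Klf8 rose by 0.38 with MeOH eluate at 6 h. With MeOH eluate at 24 h Snai3 and Twist2, the closest relatives of members, rose by 0.41 and 0.47, and Twist2 also rose by 0.35 with WS1442 at 24 h. With WS1442 at 24 h Tcf4 fell by 0.25 and Tcf3 fell by 0.18.

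Among 10 ligand and receptor genes that can drive the transition, 2 rose with WS1442 and 3 rose and 3 fell with MeOH eluate at 6 h, and at 24 h 4 rose with WS1442 and 5 rose and 1 fell with MeOH eluate. Over all genes 5.15% rose with WS1442 and 10.2% rose and 8.36% fell with MeOH eluate at 6 h, and 14.5% rose with WS1442 and 11.7% rose and 8.57% fell with MeOH eluate at 24 h. The median log2 fold change of the 10 genes was 0.14 and 0.00 at 6 h and 0.01 and 0.23 at 24 h. The count of 2 with WS1442 at 6 h became 0 without the DMSO sample of replicate 1, and 1 without that of replicate 2 or without WS1442 replicate 2 or 3. Tgfb2 and its receptor gene Tgfbr2 rose at 6 h, with log2 fold changes of 0.42 and 0.34 under WS1442 and 0.77 and 0.66 under MeOH eluate. Tgfb1 fell by 0.84 with MeOH eluate at 6 h and fell by 0.49 at 24 h. Nodal, the streak-inducing ligand gene, fell by 0.68 with MeOH eluate at 6 h and rose by 0.84 at 24 h, when it rose by 0.47 with WS1442. Met, the receptor gene for hepatocyte growth factor, had log2 fold changes of 0.81 with WS1442 and 0.78 with MeOH eluate at 24 h. Tgfbr2 and Tgfbr3 rose by 0.56 and 0.35 with WS1442 at 24 h, and Tgfbr2 also rose by 0.48 with MeOH eluate at 24 h.

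Marker genes of the cell types that such cultures can hold also moved. Of 6 endoderm markers tested, 3 fell and 1 rose with WS1442 at 24 h and 4 fell with MeOH eluate, among them Sox17 with log2 fold changes of -1.24 and -1.65. Of all genes 11.7% fell with WS1442 and 8.57% with MeOH eluate at 24 h, and 14.5% and 11.7% rose. At 6 h 1 endoderm marker fell with WS1442 and 3 with MeOH eluate, when 1.33% and 8.36% of all genes fell. The mean log2 signal of these 6 genes per array was 8.70 to 8.80 with DMSO, 8.23 to 8.37 with WS1442 and 7.63 to 7.95 with MeOH eluate at 24 h. Of 7 primitive streak and mesoderm markers, 2 fell with WS1442 and 3 with MeOH eluate at 24 h, and at 6 h 2 fell with WS1442 and 1 rose and 3 fell with MeOH eluate. With MeOH eluate at 6 h the log2 fold changes were -2.39 for Mixl1, -1.29 for T, -0.91 for Eomes and 0.46 for Hand1, and the median of the 7 genes was 0.05. With WS1442 at 6 h they were -0.99 for Mixl1 and -0.39 for Eomes, with a median of -0.06. The array means of these 7 genes, in which Mixl1 had the largest change, were 8.33 to 8.45 with DMSO, 8.18 to 8.34 with WS1442 and 7.81 to 7.94 with MeOH eluate at 6 h. Of 7 pluripotency markers, 1 fell with WS1442 and 3 fell with MeOH eluate at 6 h, 1 rose and 2 fell with WS1442 at 24 h, and 1 fell with MeOH eluate at 24 h. Their median log2 fold change was -0.11, -0.27, -0.12 and 0.16 in this order. Tdgf1 fell in all 4 comparisons, Nanog and Dppa5a also fell with MeOH eluate at 6 h and Dppa5a with WS1442 at 24 h, and Klf2 rose with WS1442 at 24 h. The array means of the 7 genes at 24 h were 8.96 to 9.17 with DMSO, 9.05 to 9.10 with WS1442 and 9.08 to 9.19 with MeOH eluate. Of 6 neuroectoderm markers 3 rose and 1 fell with WS1442 and 2 rose and 2 fell with MeOH eluate at 24 h. At 6 h 1 of them fell with WS1442, and 1 rose and 3 fell with MeOH eluate. Of 4 neural crest markers 0 fell with WS1442 (1 at an unadjusted p under 0.05) and 1 with MeOH eluate at 24 h. At 6 h 1 of them rose with WS1442, and 1 rose and 2 fell with MeOH eluate. Of 6 endothelial markers 1 and 2 fell at 24 h, and 1 fell with MeOH eluate at 6 h. Of 6 cardiac markers 1 rose and 2 fell with WS1442 and 3 fell with MeOH eluate at 24 h. Cardiac markers at 6 h moved the other way, where 1 rose with WS1442, 2 rose with MeOH eluate and 0 fell. The log2 fold change of Myl7 with MeOH eluate was 1.05 at 6 h and -2.02 at 24 h. Of all genes 5.15% rose with WS1442 and 10.2% with MeOH eluate at 6 h. The cardiac call with WS1442 at 6 h was lost without the DMSO sample of replicate 1. Without the DMSO sample of replicate 1 at 24 h 1 neuroectoderm marker rose with WS1442 and 1 cardiac marker fell with either treatment. Cdh5, 1 of the 2 endothelial markers that fell with MeOH eluate at 24 h, was the only tested marker that was near background on all arrays of a group. This held in every group but DMSO and WS1442 at 24 h. The heart gene Myh6 was not kept by the background filter. The part of these cell types in the changes of the 10 members was not tested.

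The genes whose pattern was most like that of Cdh1 and Cdh11 were sought over the 16 arrays after the mean of each time point had been subtracted. For Cdh1 they included Sesn3 and Atp6v0e2, each with a Pearson's r of 0.966 (n = 16 arrays). For Cdh11 the 3 most alike were Pcdh7, Rexo1 and P3h4, with r of 0.973, 0.971 and 0.97. These values describe arrays that share groups and slides, and they carry no test.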

How the data were processed

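RNA of 16 samples was labelled with Cy3 and hybridised to 1-colour Agilent arrays. The deposited scanner files hold the processed signal of each spot, an intensity in arbitrary units that was background-corrected within the array, and flags for spots well above background, saturated or non-uniform. The authors also deposited a table of the same intensities on a linear scale, quantile normalized by them, which was used as an alternative. The coordinates in the scanner files are mm9.

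Control and non-uniform spots were left out, spots of 1 probe were averaged, and log2 intensities were quantile normalized with limma 3.58.1 in R 4.3.3. Probes well above background on all arrays of at least 1 group were kept. The gene names of most probes were taken from RefSeq accessions in the reference table. Of 60273 probes, 31064 were named by accession, 11431 by the symbol in the files and 2662 by a list of accessions, 45 matched several genes and 15071 were unnamed. Of the 18 member probes, 7 carried the symbol itself in the files. A model of 6 group means was fitted with limma (eBayes with trend), p-values were adjusted by the Benjamini-Hochberg method over the 36718 kept probes, and a call is an adjusted p under 0.05. The procedure was tested on simulated data. Precision rests on 2 or 3 arrays per group. No count lies behind an array signal.

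Every member and probe is named. Of the other lists, genes that passed the test with the largest changes are named, at most 2 per direction and all where at most 5 passed, with Krt8, Krt18, Fn1, Cdh3 and Cdh5 in any case. Of the marker lists only some of these are named, a choice made after the values were seen. Thy1, Loxl2, Sparc, Pdgfrb, Twist2 and Tgfbr2 are also given in the other comparisons with DMSO in which they passed. This choice was likewise made after the values were seen. Other named genes also passed in comparisons that are not given, such as Met with MeOH eluate at 6 h. The members and lists were chosen with earlier results of these data known. Alternatives changed the scaling, the background correction, the filter, the probes per gene, the value table used, the test, the samples fitted and the blocks, or left out 1 array at a time. Sequences were read with Python 3.11.15 from RefSeq promoters, and the other promoters and dim probes' sequences are not used here. The result for 1 gene with a pattern like that of Cdh1 is not reported here.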

Additional observations from a re-analysis of the deposited data

Results flagged for a closer look

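Effects that differed between the time points were tested as the log2 fold change at 24 h minus that at 6 h, each against its own DMSO samples. With WS1442 this difference was -0.75 for Snai1, -0.35 for Cdh2 and -0.73 for Cdh11. With MeOH eluate it was -0.61 for Snai1, -0.44 for Twist1, 0.67 for Cdh1, -0.52 for Cdh2 and 0.5 for Epcam. The dimmer Cdh2 probe gave -0.12 with either treatment and did not pass the threshold. Time and slide cannot be told apart in these differences.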

How the results depend on the processing

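Of 33 member results that passed the threshold, 0 reversed under any alternative run. Apart from the methods' t-test, 483 of 532 repeats stayed past the threshold and 49 did not, 27 of these with an array left out. With each array scaled to its 75th percentile, 1 member was called with WS1442 at 6 h, 1 between the treatments at 24 h and 3 for the MeOH eluate effect over time. With WS1442 at 24 h, 2 members rose and 3 fell under this scaling or without the DMSO sample of replicate 2. With MeOH eluate at 6 h, 2 rose and 1 fell under this scaling or with any 1 of the arrays compared left out. Without the background filter 1 was called with WS1442 at 6 h, and within the time point 1 was called there and 4 between the treatments at 24 h. The methods' t-test called 0 members with either treatment at 6 h or 24 h and 0 between the treatments at 6 h. Between the treatments at 24 h it called 1, Snai2 (t-test adjusted p = 0.044), which limma did not call there (adjusted p = 0.128). Of the 25 member calls by limma in these 6 comparisons, the t-test kept 0. Its members at an unadjusted p under 0.05 numbered 3, 4, 6, 8, 3 and 5. The order is WS1442 and MeOH eluate at 6 h, the same at 24 h, and between them at 6 h and 24 h. With arrays left out in turn, members called ranged from 1 to 2 with WS1442 at 6 h, from 3 to 5 between the treatments at 6 h (5 without MeOH eluate replicate 2, with Snai1 and Zeb2 added) and from 3 to 5 for the MeOH eluate effect over time (3 without DMSO replicate 1 or 2 at 6 h, DMSO replicate 2 at 24 h or MeOH eluate replicate 3 at 24 h). With the replicate number as a block, 1 member was called with WS1442 at 6 h and 3 for the MeOH eluate effect over time. Deviations of samples with the same number correlated between -0.224 and 0.284, and only 1 of 14 correlations was over 0.1. Samples with different numbers were not compared in this way, so these values cannot decide whether the numbers pair the samples. Apart from the methods' t-test, the share of all genes called ranged over the alternatives from 0.944% to 8.85% with WS1442 and from 7.66% to 22.9% with MeOH eluate at 6 h, and from 14% to 31.5% and from 12.9% to 23.8% at 24 h. Over the same alternatives the epithelial genes that rose numbered 0 to 9 with WS1442 and 6 to 12 with MeOH eluate at 6 h, and 15 to 21 and 18 to 20 at 24 h, against 0, 0, 0 and 2 by the methods' t-test. The mesenchymal genes that rose numbered 0 to 3, 3 to 8, 2 to 5 and 3 to 5 in this order, and those that fell 0 to 1, 1 to 4, 1 to 5 and 3 to 6. The ranges of the other transcription factors were 1 to 2, 2 to 3, 3 to 4 and 3 to 4 for a rise and 1 to 1, 1 to 3, 0 to 2 and 1 to 2 for a fall. Those of the ligand and receptor genes were 0 to 2, 3 to 3, 3 to 4 and 4 to 5 for a rise, and those of the catenins 0 to 1, 2 to 3, 2 to 4 and 2 to 5. Scaling to the 75th percentile changed the share of higher calls among all calls from 47.9% to 36.7% with WS1442 at 24 h, from 36% to 19.5% between the treatments at 6 h and from 41.8% to 25.9% for the WS1442 effect over time. The cause of these changes was not tested.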
